A study of Caenorhabditis elegans with 4 samples.

Results

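The genes described here are nuclear genes for subunits of the mitochondrial respiratory chain of Caenorhabditis elegans: 14 genes of complex I, 4 of complex II, 6 of complex III, 1 for cytochrome c, 6 of complex IV and 11 of complex V, together with clk-1, which acts in ubiquinone synthesis. They were taken from the count table by the sequence name of each gene. They are 43 of the 17096 genes of the table. Of the 44 names listed 1, C34E6.6, matched no gene there and was not analysed here. The filter on low counts, 10 reads or more in some library, left 9032 genes and removed none of the 43.

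The respiratory chain moves electrons from NADH, through complex I, or from succinate, through complex II, to ubiquinone, then by way of complex III and cytochrome c to complex IV, where oxygen is reduced. Complexes I, III and IV pump protons across the inner mitochondrial membrane, and complex V, the ATP synthase, uses their return to make ATP. Most subunits are encoded in the nucleus and a small set in the mitochondrial genome, and the chain is well known in worms for mutants with altered lifespan: isp-1, nuo-6 and clk-1 mutants and worms with reduced cox-5B (cco-1) live longer, while mev-1 and gas-1 mutants are short-lived.

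The study measured RNA of entire animals of the wild-type strain N2 on a pair of diets and at a pair of ages, since a Bacillus subtilis diet was another condition that lengthens life. From the first larval stage, L1, the worms of a group ate 1 kind of bacteria throughout: Escherichia coli OP50, the common laboratory food, or Bacillus subtilis PY79. Adults were then collected on day 4 or on day 13. Each of the 4 groups (OP50 day 4, OP50 day 13, PY79 day 4, PY79 day 13) was 1 library made from a pooled population, so there is no replicate of any group. FUDR, a drug that stops the production of progeny, is named in the study's methods for its young against old transcriptomes in general, but not in the description of these 4 cultures, so whether these worms received it is unclear.

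The libraries sample the 3' ends of poly(A) transcripts, and the files hold read counts for each annotated transcript. The chosen transcripts of all genes held 28650595 reads in OP50 day 4, 28552961 in OP50 day 13, 4838114 in PY79 day 4 and 4469802 in PY79 day 13, so depth differed with diet. Levels are given as reads, or as CPM, depth-scaled counts computed on library sizes multiplied by TMM factors, and the floor of 3 reads lay between 0.114 and 0.556 CPM. A member is called higher or lower where the ratio reached 2-fold and its exact 95% interval, which reflects counting error alone, left out 1. A gene rose or fell where edgeR's test over the 4 libraries, with age and diet as additive terms, gave an adjusted p under 0.05. Because whole worms were measured, fewer cells of a type and less RNA per cell cannot be told apart. Markers of muscle, germ line, intestine, neurons and epidermis were all detected, although the epidermal collagen gene bli-1 had no read in 3 of the 4 libraries and dpy-7 had none in PY79 day 4.

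With the PY79 diet, reads of the nuclear respiratory chain genes made up a smaller part of the library. The 43 genes held 155423 reads in OP50 day 4, 152299 in OP50 day 13, 13942 in PY79 day 4 and 13127 in PY79 day 13. These were 0.542% and 0.533% of all reads on OP50, and 0.288% and 0.294% on PY79. Both PY79 shares lay below both OP50 shares, whereas the ages differed little within a diet. The sum is governed by the genes with most reads, and single genes moved in both directions.

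The age comparison asked how these genes differed between day 13 and day 4 on each diet. No member rose and none fell with age in edgeR's test, and 2, cox-6A and cox-5B, had an unadjusted p under 0.05, against 3.52% of all 9032 genes that rose and 4.05% that fell (7.57% in all). DESeq2's Wald test passed 0 as well. On OP50, 3 members were higher at day 13 and 2 were lower, which is 11.6% of the 43 against 33.5% of all genes (14.6% higher and 18.9% lower). On PY79, 0 were higher and 3 were lower, against 6.48% and 7.97% of all genes (14.4% in all). None was called on both diets. With total-read scaling 1 member was higher and 4 were lower on OP50. The median log2 age ratio of the members was 0.16 on OP50 and -0.39 on PY79, and that of all genes was 0.02 and -0.11. With total reads in place of TMM factors the members' medians were -0.15 and -0.17, so the sign on OP50 depends on the scaling, and those of all genes were -0.28 and 0.08.

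Among the members, complex IV held the widest age ratios on OP50. Its nuclear subunits surround a catalytic core encoded in the mitochondrial genome. The gene cox-6A (F54D8.2) had 7974 reads in OP50 day 4, 908 in OP50 day 13, 203 in PY79 day 4 and 153 in PY79 day 13. OP50 day 4 thus stood far above the other libraries, at 302 CPM against 42.8, 37.6 and 26.2 CPM. At day 13 the gene was 7.05-fold lower on OP50 (95% interval 6.58 to 7.56) and 1.44-fold lower on PY79 (1.16 to 1.78), with an adjusted p of 0.056 for age in edgeR's test, which it passed only when robust weights were used.

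The gene cox-5B (F26E4.9), also named cco-1, had 9795, 1759, 71 and 59 reads, with the libraries in the same order. OP50 day 4 was again the highest of the libraries, and both PY79 libraries were lowest. The gene was 4.47-fold lower at day 13 on OP50 (4.25 to 4.7) and 1.3-fold lower on PY79 (0.91 to 1.87). Its edgeR adjusted p for age was 0.20. The other complex IV genes did not share this course, since cox-4 (W09C5.8) had 15627, 26184, 3901 and 4080 reads and was 2.09-fold higher at day 13 on OP50 (2.05 to 2.13). On PY79 the level of cox-4 differed little between the ages, with a ratio of 1.04-fold lower (0.991 to 1.08). Reads of cox-7C (F26E4.6) were 1.84-fold higher at day 13 on OP50, those of cox-5A (Y37D8A.14) 1.63-fold higher and those of cox-6B (Y71H2AM.5) 1.12-fold lower, and none of these was called.

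The 3 members that were lower with age on PY79 all belong to complex I. The gene nuo-5 (Y45G12B.1), for the large iron-sulfur subunit that binds several clusters, had 242, 204, 90 and 38 reads. Its level was alike at both ages on OP50, at 9.16 and 9.62 CPM, and dropped from 16.7 to 6.5 CPM on PY79, which is 2.57-fold lower (1.74 to 3.85). The gene lpd-5 (ZK973.10), for an accessory subunit needed in assembly, had levels of 9.95, 5.61, 6.67 and 2.91 CPM, and was 2.29-fold lower on PY79 (1.26 to 4.36) and 1.77-fold lower on OP50 (1.42 to 2.22). The gene nuo-2 (T10E9.7), for a core subunit of the peripheral arm, had 24, 18, 19 and 7 reads, so its 2.94-fold lower level on PY79 rests on few reads (1.18 to 8.28). None of the 3 passed the test for age, with edgeR adjusted p-values of 0.83, 0.48 and 0.80.

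In complex I only nuo-4 (K04G7.4), an accessory subunit gene, was called with age on OP50. It had 65, 108, 87 and 53 reads and was 2.07-fold higher at day 13 on OP50 (1.51 to 2.86), while on PY79 it was 1.78-fold lower (1.25 to 2.55). The direction thus differed between the diets, but the opposite calls were not made because the PY79 ratio was under 2-fold. The highest age ratio on PY79 in the complex was that of gas-1 (K09A9.5), at 1.38-fold (0.52 to 3.91), an interval that spans 1. For clk-1 (ZC395.2), the hydroxylase of ubiquinone synthesis, 14, 36, 23 and 30 reads were counted. OP50 day 4 was the lowest, and the gene was 3.20-fold higher at day 13 on OP50 (1.69 to 6.43) and 1.2-fold higher on PY79 (0.676 to 2.17).

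**Figure D1:**
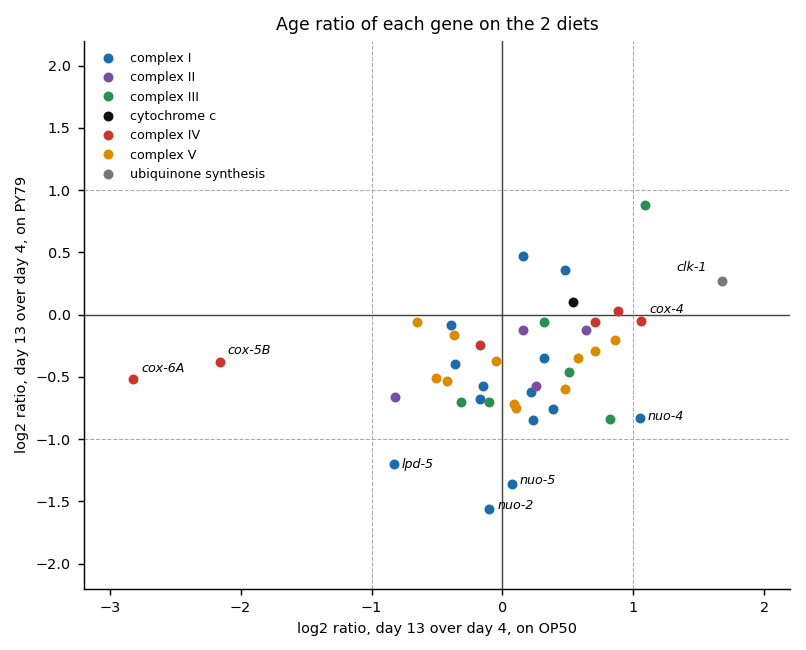
Log2 ratio of day 13 over day 4 for each of the 43 genes, on OP50 (horizontal axis) and on PY79 (vertical axis), coloured by complex, with dashed lines at 2-fold. The genes cox-6A and cox-5B stand apart at the left, at -2.82 and -2.16 on OP50, and 35 of the 43 genes (22 with total-read scaling) have a lower age ratio on PY79 than on OP50.

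Complexes II, III and V held no member that was called with age on either diet. In complex II the log2 age ratios on OP50 ran from -0.80 for sdhb-1 to 0.63 for sdha-1, and in complex V from -0.65 for atp-1 to 0.86 for atp-3. In complex III they ran from -0.32 for ucr-1 to 0.93 for ucr-2.2, a gene with 12 reads at most. On PY79 the lowest of these complexes were sdhb-1 at -0.64, ucr-2.3 at -0.83 and asb-2 at -0.74, and the highest were sdha-1 at -0.11, ucr-2.2 at 0.78 and atp-1 at -0.06.

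The age ratios of the members on the 2 diets, which share no library, were only loosely related, with a Pearson r of 0.281 and a Spearman rho of 0.323 across 43 genes. Genes are not independent replicates, and ratios of all genes gave 0.390 and 0.237. The ratios had the same sign in 23 of the 43 genes. The age ratio was lower on PY79 than on OP50 in 35 of the 43 members (81.4%) and in 54.2% of all genes, which with total-read scaling became 22 members (51.2%) and 37.5% of all genes. Whether these ratios differ between the diets was not tested, because the additive model has no term left for it.

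Some cell type markers moved with age as well. Of 9 body muscle markers 5 fell with age in edgeR's test and 0 rose, where 4.05% of all genes fell and 3.52% rose. The summed level of these markers was 1365 and 292 CPM on OP50 at day 4 and day 13 and 402 and 164 CPM on PY79. Of 7 intestine markers 3 fell, with summed levels of 21378, 4264, 19067 and 3218 CPM in the order OP50 day 4, OP50 day 13, PY79 day 4 and PY79 day 13. Most of the intestine sum in OP50 day 4 came from vit-2 and vit-6, at 7655 and 12599 CPM. Of 9 oocyte and germ line markers 2 fell, cpg-2 and egg-1, with sums of 2390, 1669, 940 and 763 CPM, and the other 7 did not pass. Of 6 measured neuron markers 0 passed, with sums of 47.5, 62, 38.9 and 36.9 CPM. Of 2 measured epidermis markers 1 fell, col-19. The part of these changes in the ratios of cox-6A, cox-5B and the complex I genes was not tested. The members' summed level was 5883 and 7182 CPM on OP50 at day 4 and day 13 and 2582 and 2244 CPM on PY79. As a share of all reads, which is not scaled by TMM factors, the members stayed close to the same at both ages on each diet.

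**Figure D2:**
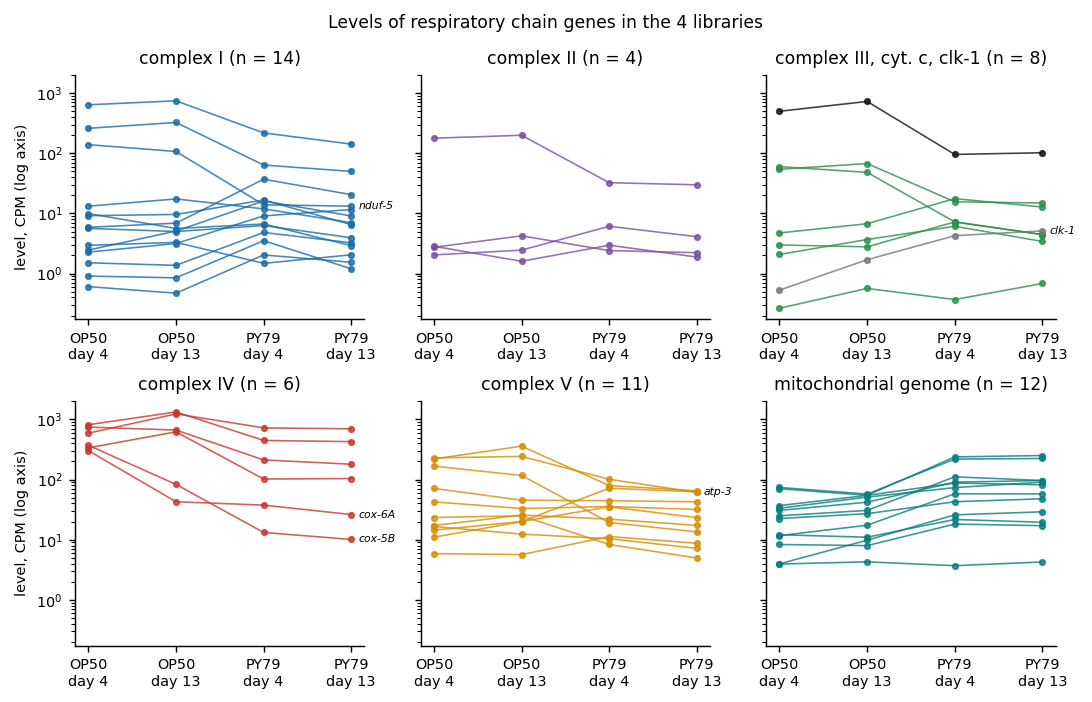
Level in CPM (log axis) of each gene in the 4 libraries, in panels by complex, with the 12 genes of the mitochondrial genome in the last panel. Each line is 1 gene and each point 1 library. In complex IV cox-6A and cox-5B drop between OP50 day 4 and OP50 day 13, while genes of the mitochondrial genome lie higher on PY79 than on OP50 with the exception of ND2.

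The diet comparison asked how worms on PY79 differed from worms on OP50 at each age. In edgeR's test 6 members rose on PY79 (nuo-3, nuo-4, nuo-6, nduf-6, atp-3 and clk-1), against 14.8% of all genes, and 15 fell, against 17.0% of all genes (31.8% in all). The other 22 passed in neither direction. With total-read scaling 9 rose, with nduf-2.2, mev-1 and cyc-1 added, and 9 fell. At day 4, 13 members were higher and 15 lower, against 25.4% and 24.3% of all genes (49.7% in all). At day 13, 6 were higher and 16 lower, against 22.6% and 22.8% (45.4% in all), and with total-read scaling 12 were higher and 14 lower. At both ages 6 were higher, those that rose but with nduf-2.2 in place of nuo-4, and 14 were lower, those that fell except cox-6A. No member was called in opposite directions. The members' median log2 ratio was -0.17 at day 4 and -0.67 at day 13, where all genes had -0.09 and 0.01. With total-read scaling these medians were 0.09 and 0.13 beside 0.16 and 0.78 for all genes, so the sign depends on the scaling while the members stayed below all genes.

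Of the cell type markers 2 of 9 of body muscle, 1 of 9 of germ line, 1 of 7 of intestine and 1 of 6 of neurons fell on PY79 and 0 rose, where 17.0% of all genes fell. Their part in the members' ratios was not tested.

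The complexes did not share a direction. Complex IV and cytochrome c were lower on PY79, with median log2 ratios of -1.77 and -2.38 at day 4 and -1.76 and -2.83 at day 13, and stayed below 0 under total-read scaling (-1.49 and -2.11 at day 4, -0.94 and -2.01 at day 13). Complex V had medians of -0.68 and -0.57, the second of which was 0.25 under total-read scaling. The complex I members had 0.51 and -0.45 and complex II -0.06 and -0.35. The positive day 4 median holds for the listed members only. Another 18 complex I genes, not among the 44 names, had medians of -1.14 at day 4 and -0.68 at day 13. Under total-read scaling the day 13 median of the complex I members was 0.36, and the medians of complex II were 0.21 and 0.45. Complex III had 0.83 and 0.07, the latter -0.08 with DESeq2 size factors. The complexes also differed in level. Every complex IV gene and cyc-2.1 had a mean level over the 4 libraries of 16 CPM or more. Most members of complexes I and III lay below 16 CPM. All genes from 16 to 64 CPM and of 64 CPM or more also had negative medians at day 4, -1.13 and -1.03. The part of level in the contrast between complexes was not tested. No test of the complexes against each other was made, since subunits are not replicates.

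**Figure D3:**
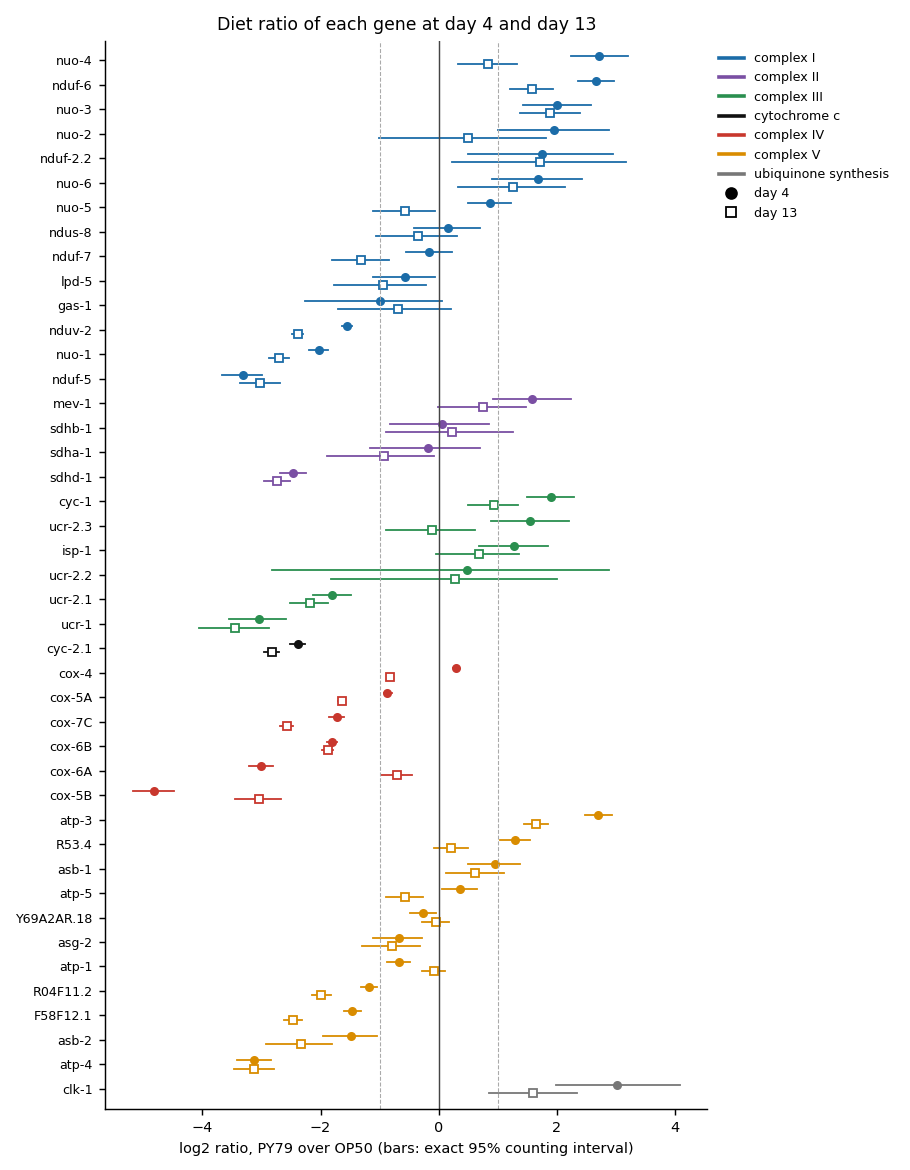
Log2 ratio of PY79 over OP50 for each gene at day 4 (filled circles) and at day 13 (open squares), grouped by complex, with exact 95% counting intervals as bars and dashed lines at 2-fold. Complex IV lies at or left of 0 except for cox-4 at day 4, and complexes I, III and V spread to both sides.

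In complex I the genes that fell on PY79 were those with most reads. The flavoprotein pair of the NADH-binding module, nuo-1 (C09H10.3) and nduv-2 (F53F4.10), binds the FMN cofactor and an iron-sulfur cluster. Reads of nuo-1 were 6862 and 6894 on OP50 and 344 and 292 on PY79, for day 4 and day 13. Reads of nduv-2 were 16903 and 15778 on OP50 and 1175 and 829 on PY79. In both genes the PY79 levels lay below both OP50 levels. The level of nuo-1 was 4.08-fold lower at day 4 (3.66 to 4.56) and 6.51-fold lower at day 13 (5.79 to 7.35), with an edgeR adjusted p of 0.00046. The level of nduv-2 was 2.94-fold lower at day 4 (2.77 to 3.12) and 5.25-fold lower at day 13 (4.9 to 5.64), with an adjusted p of 0.0030.

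The accessory subunit gene nduf-5 (Y54E10BL.5) had 3677 and 2259 reads on OP50 and 75 and 77 on PY79. It fell the most in the complex, being 10-fold lower at day 4 (7.97 to 12.8) and 8.09-fold lower at day 13 (6.45 to 10), with an edgeR adjusted p of 6.7e-06. The core subunit genes nduf-7 (W10D5.2) and ndus-8 (T20H4.5), whose products hold iron-sulfur clusters on the path to ubiquinone, passed in neither direction. Of them nduf-7 had 349, 368, 64 and 41 reads and was called lower at day 13 only, at 2.48-fold (1.79 to 3.51).

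The complex I genes that rose on PY79 had far fewer reads. The accessory subunit gene nduf-6 (F22D6.4) had 155 and 146 reads on OP50 and 200 and 120 on PY79, in libraries of much smaller depth. Its levels were 5.87 and 6.89 CPM on OP50 and 37 and 20.5 CPM on PY79. This was 6.31-fold higher at day 4 (5.09 to 7.84) and 2.98-fold higher at day 13 (2.32 to 3.82), with an edgeR adjusted p of 0.0038. Reads of nuo-3 (Y57G11C.12) were 60, 67, 49 and 68, and the gene was 4.00-fold higher at day 4 (2.68 to 5.93) and 3.68-fold higher at day 13 (2.59 to 5.24), with an adjusted p of 0.0060. The second line of nuo-3, with 57, 60, 41 and 62 reads, was also called higher at both ages. Its log2 ratios were 2.17 at day 4 and 2.09 at day 13. A further line of nuo-3 had 33, 23, 3 and 3 reads. That line was 2.25-fold lower at day 4 (0.705 to 11.5), an interval that spans 1. With the lines summed nuo-3 did not pass, with an edgeR adjusted p of 0.12. For nuo-4, whose reads are given above, OP50 day 4 was the lowest library and PY79 day 4 the highest, so that it was 6.55-fold higher at day 4 (4.7 to 9.18) and 1.78-fold higher at day 13 (1.26 to 2.49), with an adjusted p of 0.016. The accessory subunit gene nuo-6 (W01A8.4) had 40, 29, 26 and 19 reads. It was 3.18-fold higher at day 4 (1.86 to 5.34) and 2.38-fold higher at day 13 (1.26 to 4.38), and its adjusted p of 0.044 was close to the threshold. In DESeq2's Wald test nuo-4, nuo-6 and clk-1 did not pass, while the other 3 members that rose did.

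The genes gas-1 and nduf-2.2 (T26A5.3) encode alternative forms of the same core subunit near the ubiquinone site. Reads of gas-1 were 78 and 70 on OP50 and 8 and 12 on PY79, and those of nduf-2.2 were 16 and 10 on OP50 and 11 and 9 on PY79. The level of gas-1 on PY79 was 1.99-fold lower at day 4 (0.963 to 4.78) and 1.61-fold lower at day 13 (0.865 to 3.26). The level of nduf-2.2 was 3.36-fold higher at day 4 (1.41 to 7.72) and 3.26-fold higher at day 13 (1.17 to 8.94). Neither passed edgeR's test, with adjusted p-values of 0.31 and 0.077. The remaining members of complex I, nuo-2, nuo-5 and lpd-5, passed in neither direction, and of these nuo-2 was called higher at day 4, at 3.87-fold (2.01 to 7.38).

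Complex II showed a similar split between its genes. The membrane anchor gene sdhd-1 (F33A8.5) had 4708 and 4211 reads on OP50 and 175 and 175 on PY79. It was 5.50-fold lower at day 4 (4.73 to 6.43) and 6.64-fold lower at day 13 (5.7 to 7.77), with an edgeR adjusted p of 0.00013. The other anchor gene, mev-1 (T07C4.7), had 54, 52, 33 and 24 reads, and was 2.99-fold higher at day 4 (1.88 to 4.7) and 1.67-fold higher at day 13 (0.986 to 2.76), with an adjusted p of 0.11. The genes of the catalytic subunits differed less. The flavoprotein gene sdha-1 (C03G5.1) had 72, 90, 13 and 13 reads and the iron-sulfur gene sdhb-1 (F42A8.2) had 75, 34, 16 and 11 reads. Their intervals spanned 1 at day 4, where sdha-1 was 1.13-fold lower (0.622 to 2.23) and sdhb-1 1.04-fold higher (0.568 to 1.81).

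In complex III the core protein genes ucr-1 (F56D2.1) and ucr-2.1 (VW06B3R.1) fell. Reads of ucr-1 were 1583 and 1021 on OP50 and 39 and 26 on PY79, and the gene was 8.29-fold lower at day 4 (6.04 to 11.7) and 10.8-fold lower at day 13 (7.35 to 16.7), with an edgeR adjusted p of 1.4e-05. Reads of ucr-2.1 were 1429 and 1432 on OP50 and 84 and 87 on PY79, and the gene was 3.48-fold lower at day 4 (2.79 to 4.39) and 4.54-fold lower at day 13 (3.65 to 5.7), with an adjusted p of 0.0044. Its paralogs had fewer reads. The gene ucr-2.3 (T24C4.1) had 55, 78, 33 and 20 reads and was 2.94-fold higher at day 4 (1.85 to 4.60) and 1.08-fold lower at day 13 (0.651 to 1.86). The gene ucr-2.2 (T10B10.2) had 7, 12, 2 and 4 reads, and its intervals spanned 1 in every comparison.

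The genes of the subunits of complex III that carry electrons were called higher on PY79 at day 4. The gene cyc-1 (C54G4.8), for cytochrome c1, had 125 and 143 reads on OP50 and 95 and 75 on PY79, and was 3.72-fold higher at day 4 (2.82 to 4.9) and 1.90-fold higher at day 13 (1.42 to 2.53). These ratios are those of its chosen line and were not seen in its other line, given with the transcript lines. The Rieske iron-sulfur protein gene isp-1 (F42G8.12) had 79, 59, 39 and 26 reads, and was 2.42-fold higher at day 4 (1.60 to 3.59) and 1.60-fold higher at day 13 (0.967 to 2.57). Neither passed edgeR's test, with adjusted p-values of 0.053 and 0.19. The gene of cytochrome c itself, cyc-2.1 (E04A4.7), went the other way, with 13194 and 15407 reads on OP50 and 516 and 598 on PY79. It was 5.23-fold lower at day 4 (4.78 to 5.72) and 7.11-fold lower at day 13 (6.55 to 7.72), with an adjusted p of 0.00011.

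All 6 complex IV genes had a lower level on PY79 at day 13 (5 with total-read scaling), and 5 of the 6 at day 4, the exception being cox-4. The gene cox-5B fell the most of all members at day 4. Its levels were 371 and 83.0 CPM on OP50 and 13.2 and 10.1 CPM on PY79. This was 28.2-fold lower at day 4 (22.3 to 36.1) and 8.22-fold lower at day 13 (6.34 to 10.8), with an edgeR adjusted p of 8.3e-08. For cox-6A the drop was 8.03-fold at day 4 (6.98 to 9.27) and 1.64-fold at day 13 (1.38 to 1.96), with an adjusted p of 0.0091. On this chosen line the difference thus lay mostly between the day 4 libraries, as on its second line (log2 ratios -2.92 and -0.70). A further line, with 7940, 821, 16 and 16 reads, was 101-fold lower at day 4 (62.4 to 178). That line was still 14.2-fold lower at day 13 (8.66 to 24.9).

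Reads of cox-6B were 19709 and 14096 on OP50 and 1146 and 1053 on PY79, and the gene was 3.51-fold lower at day 4 (3.31 to 3.73) and 3.69-fold lower at day 13 (3.47 to 3.93), with an edgeR adjusted p of 0.0049. Reads of cox-7C were 8902 and 13174 on OP50 and 552 and 610 on PY79, and the gene was 3.3-fold lower at day 4 (3.02 to 3.6) and 5.96-fold lower at day 13 (5.49 to 6.47), with an adjusted p of 0.0014. Both therefore kept their PY79 levels below both OP50 levels. The genes cox-5A and cox-4 did not pass. The level of cox-5A was 1.82-fold lower at day 4 (1.75 to 1.90) and 3.11-fold lower at day 13 (2.99 to 3.24), with an adjusted p of 0.061. The level of cox-4 was 1.22-fold higher (1.18 to 1.27) and then 1.77-fold lower (1.71 to 1.83).

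Complex V was measured by 11 genes, of which 4 fell and 1 rose on PY79, where 17.0% of all genes fell and 14.8% rose. The peripheral stalk gene atp-4 (T05H4.12) had 4417 and 2485 reads on OP50 and 104 and 79 on PY79. It was 8.68-fold lower at both ages (7.15 to 10.6 and 6.93 to 11), with an edgeR adjusted p of 7.5e-06. The gene F58F12.1, for the delta subunit of the central stalk, had 5812, 7614, 430 and 380 reads and was 2.76-fold lower at day 4 (2.5 to 3.05) and 5.53-fold lower at day 13 (4.98 to 6.14), with an adjusted p of 0.0035. The gene R04F11.2, for the small membrane subunit e, had 6043, 5146, 545 and 358 reads and was 2.27-fold lower at day 4 (2.08 to 2.48) and 3.96-fold lower at day 13 (3.56 to 4.43), with an adjusted p of 0.019. In contrast atp-3 (F27C1.7), whose product connects the peripheral stalk to the catalytic head, had 291, 425, 387 and 366 reads. Its levels were 11 and 20 CPM on OP50 and 71.7 and 62.6 CPM on PY79, which is 6.51-fold higher at day 4 (5.58 to 7.60) and 3.12-fold higher at day 13 (2.71 to 3.6), with an adjusted p of 0.0019.

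The genes asb-1 (F35G12.10) and asb-2 (F02E8.1) encode alternative forms of subunit b of the peripheral stalk, and asb-1 is known for expression in the germ line. Reads of asb-2 were 617 and 531 on OP50 and 45 and 29 on PY79, and it was 2.8-fold lower at day 4 (2.07 to 3.88) and 5.05-fold lower at day 13 (3.48 to 7.62), with an edgeR adjusted p of 0.010. Reads of asb-1 were 155, 120, 61 and 51, and it was 1.93-fold higher at day 4 (1.41 to 2.61) and 1.54-fold higher at day 13 (1.09 to 2.16), with an adjusted p of 0.30. Read from its other line, asb-1 was instead 8.24-fold lower at day 4 (2.75 to 40.5) and 3.92-fold lower at day 13 (1.6 to 12.4). Of the germ line markers glh-1 fell on PY79 and the other 8 did not pass. The catalytic alpha subunit gene atp-1 (H28O16.1) had 1883, 963, 240 and 250 reads and was 1.60-fold lower at day 4 (1.4 to 1.84) and 1.06-fold lower at day 13 (0.924 to 1.23). The chosen line of the gamma subunit gene Y69A2AR.18 differed still less at day 4, at 1.2-fold lower. Its second line was not called on PY79, with log2 ratios of -0.63 at day 4 and -0.55 at day 13. A further line, with 954, 528, 35 and 56 reads, was 5.57-fold lower at day 4 (3.98 to 8.05). At day 13 that further line was 2.6-fold lower (1.97 to 3.49). Of the rest, R53.4 (subunit f) was called higher at day 4 at 2.45-fold (2.04 to 2.92), and atp-5 and asg-2 were not called. The beta subunit gene atp-2 (C34E10.6) was not among the 44 names and was read after the other values were known. It had 898, 1002, 431 and 349 reads, and was 2.35-fold higher on PY79 at day 4 (2.09 to 2.64) and 1.26-fold higher at day 13 (1.11 to 1.43), with an adjusted p of 0.28.

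The level of clk-1 was the lowest in OP50 day 4, at 0.530 CPM, then 1.7 CPM in OP50 day 13, 4.26 CPM in PY79 day 4 and 5.13 CPM in PY79 day 13. The gene rose on PY79, being 8.04-fold higher at day 4 (3.96 to 16.9) and 3.02-fold higher at day 13 (1.80 to 5.05), with an edgeR adjusted p of 0.0021. Of 6 other measured genes of ubiquinone synthesis, coq-3, a methyltransferase gene, fell on PY79 with 518, 877, 33 and 30 reads and an adjusted p of 0.0020. The gene coq-3 lies next to nuo-3 on the same strand in the annotation. The gene coq-4 fell with age, with 298, 33, 13 and 9 reads and an adjusted p of 0.038.

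The diet ratio went with the level of a member. Across the 43 members the Spearman correlation of the log2 diet ratio with the mean log2 CPM over the 4 libraries was -0.624 at day 4 and -0.641 at day 13, where all genes gave 0.00177 and -0.0254. The ratio and the mean share the same libraries, genes are not replicates, and levels here are 3' end reads that were not divided by length. Members with a mean under 4 CPM (n = 10) had a median log2 ratio of 1.54 at day 4, and those from 4 to 16 CPM (n = 12) had 0.90. Those from 16 to 64 CPM (n = 11) had -1.79 and those of 64 CPM or more (n = 10) had -1.64. In the same 4 bins all genes had 0.13, 0.12, -1.13 and -1.03, so that all genes also lay lower on PY79 above 16 CPM. At day 13 the members' medians were 0.36, 0.14, -0.71 and -2.43 and those of all genes 0.14, 0.26, -1.13 and -1.3. With TMM scaling the median ratio of the members thus had the same sign as that of all genes of like level in each bin.

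The genes of the mitochondrial genome did not follow this pattern. It encodes 12 subunits of complexes I, III, IV and V, and all 12 genes were measured. Of them 6 rose on PY79 in edgeR's test (CYTB, COX1, ND3, ND4, ND5 and ND6) and 0 fell, against 14.8% and 17.0% of all genes. At day 4, 9 were higher and 0 lower, against 25.4% and 24.3% of all genes. At day 13, 7 were higher and 0 lower, against 22.6% and 22.8% of all genes. The gene COX1, for the catalytic subunit of complex IV, had 1862 and 1160 reads on OP50 and 1286 and 1468 on PY79, with log2 ratios of 1.76 at day 4 and 2.2 at day 13 and an adjusted p of 0.0030. The gene CYTB, for cytochrome b of complex III, had 308, 370, 313 and 338 reads, with log2 ratios of 2.31 and 1.72 and an adjusted p of 0.0038. Only ND2 had ratios near 0, at -0.09 and -0.01. The median log2 ratio of the 12 genes was 1.4 at day 4 and 1.14 at day 13, and 1.68 and 1.96 with total-read scaling. Of the 12 genes 6 had a mean level from 16 to 64 CPM, where their day 4 median was 1.4 beside -1.79 for the nuclear members of that level.

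Read against each other the genomes do not depend on library scaling. For each 100 reads of the 43 nuclear members there were 5.66 reads of the 12 mitochondrial genes in OP50 day 4 and 5.13 in OP50 day 13. In PY79 day 4 there were 38.3 and in PY79 day 13 there were 45.3. Both PY79 libraries thus lay far above both OP50 libraries, and age made little difference. Mitochondrial genes took 0.0307% and 0.0273% of all reads on OP50 and 0.110% and 0.133% on PY79. With 1 library per group, a difference between diets cannot be told apart from a difference between these libraries.

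**Figure D4:**
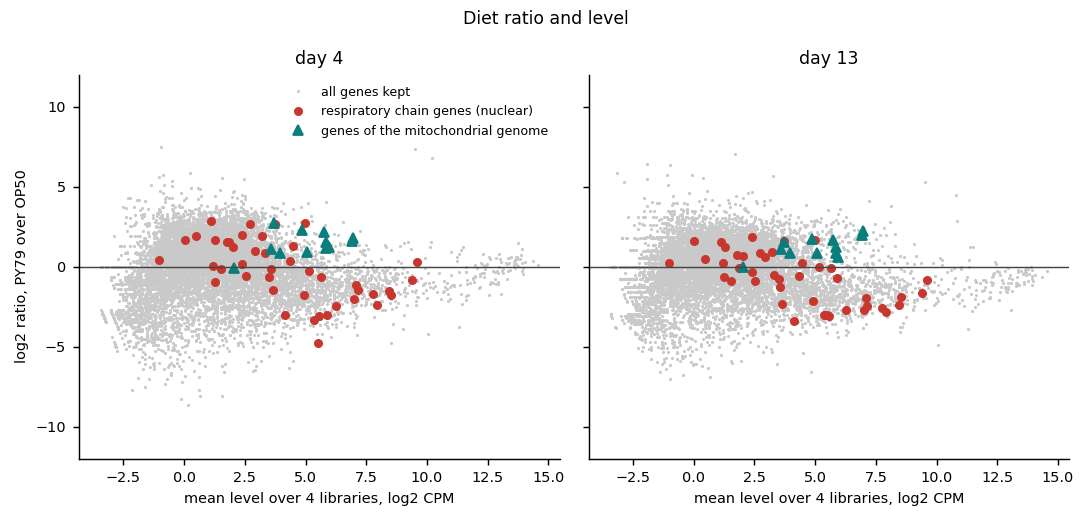
Log2 ratio of PY79 over OP50 against the mean log2 CPM of the 4 libraries at day 4 (left) and day 13 (right) for the 9032 genes kept (grey), the 43 nuclear respiratory chain genes (red circles) and the 12 genes of the mitochondrial genome (green triangles). Nuclear members of 16 CPM or more, above 4 on the log2 axis, lie mostly below 0, and mitochondrial genes of like level lie above 0.

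Other nuclear genes of the chain that were not among the 44 were read for comparison, and 28 of 29 passed the filter. Of these 13 fell on PY79, where 17.0% of all genes fell, and 1 rose, sdha-2, a paralog of sdha-1, where 14.8% of all genes rose. With age 0 rose and 0 fell, where 3.52% and 4.05% of all genes did, and 1 had an unadjusted p under 0.05. The complex I gene C16A3.5 had 1687, 234, 85 and 69 reads, so OP50 day 4 was the highest library, as for cox-6A and cox-5B. It was 5.79-fold lower at day 13 on OP50 (5.04 to 6.66). The median log2 diet ratio of these other genes was -1.12 at day 4 and -1.21 at day 13. Among those that fell on PY79 were F45H10.2, a small subunit of complex III, with 14448, 6655, 211 and 229 reads and an edgeR adjusted p of 1.1e-06, and ndua-12 of complex I, with 2026, 1589, 49 and 38 reads and an adjusted p of 5.9e-06. The gene ant-1.1, for the carrier that exchanges ADP and ATP across the inner membrane, had 43491 and 23433 reads on OP50 and 732 and 560 on PY79 and also fell, with an adjusted p of 2.0e-07. Of 4 measured genes of the mitochondrial stress response 2 rose on PY79, where 14.8% of all genes rose: hsp-60, a matrix chaperonin, and atfs-1, the transcription factor of the response. The other two, hsp-6 and ubl-5, did not pass, with adjusted p-values of 0.16 and 0.33. Reads of atfs-1 were 47, 55, 68 and 88, with an adjusted p of 0.00021, and those of hsp-60 were 225, 244, 186 and 204, with an adjusted p of 0.012.

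Some genes have several transcript lines in the table, among them 34 of the 43 members. The result for some members turned on the line that was read. Of the 43 members 32 had a second line that differed from the chosen one. The second line held a median of 95.6% and 93.2% of the reads of the chosen line on OP50 at day 4 and day 13, and 78.5% and 73.0% on PY79. For the 3209 of the 9032 kept genes with such a line these medians were 84.4%, 70.4%, 38.5% and 46.4%. The share was lower on PY79 than on OP50 in 28 of the 32 members at day 4 and in 29 at day 13, against 77.5% and 64.6% of all such genes, so the members were not alone in this.

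**Figure D5:**
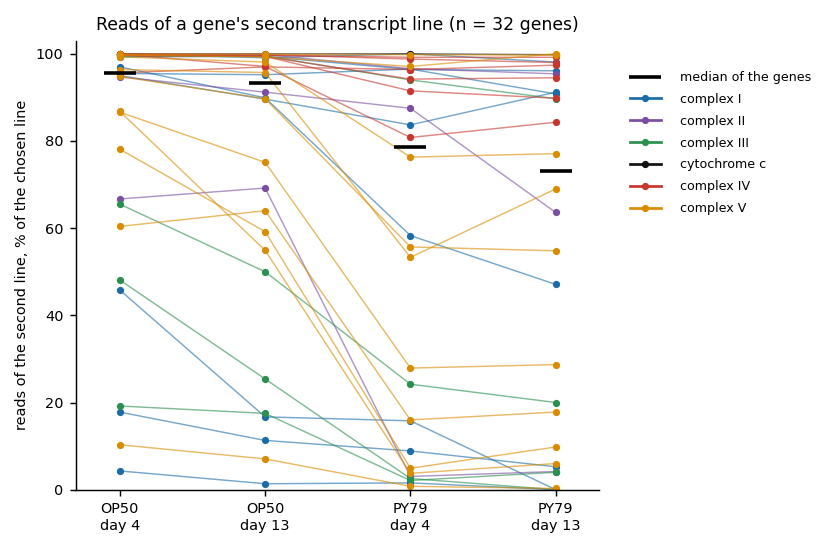
Reads of the second transcript line as a percentage of the reads of the chosen line, in the 4 libraries, for the 32 members that have such a line, coloured by complex, with black bars at the medians. The medians are 95.6, 93.2, 78.5 and 73.0%, and a group of lines drops between OP50 and PY79.

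Examples of such shifts were atp-1, cox-6A, asb-1, mev-1, isp-1 and cyc-1. The chosen line of atp-1 had 1883, 963, 240 and 250 reads, and another line had 1635, 529, 9 and 15. Read from the other line, atp-1 was 37.1-fold lower on PY79 at day 4 (19.5 to 81.3), where the chosen line gave 1.60-fold. A further line of cox-6A had 7940, 821, 16 and 16 reads beside 7974, 908, 203 and 153 for the chosen one. On PY79 most reads of cox-6A thus lay outside that line, whereas on OP50 nearly all lay within it. For asb-1 the other line had 121, 71, 3 and 5 reads, for mev-1 36, 36, 1 and 1, and for isp-1 38, 15, 1 and 0. The other line of cyc-1 had 24, 25, 2 and 3 reads and was 2.45-fold lower on PY79 at day 4 (0.609 to 21.4), an interval that spans 1. The higher levels of mev-1, isp-1 and cyc-1 on PY79 were therefore not seen in these lines.

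For atp-3 the chosen line had 291, 425, 387 and 366 reads and another line 30, 30, 3 and 1. The rise of atp-3 was thus not seen in the other line, and its log2 diet effect from the other line was -1.52 with an edgeR adjusted p of 0.27. For 15 of the 43 members an exon overlaps another annotated gene, on the same strand for nuo-1, nuo-3, cox-6B, atp-1 and atp-4 and on the other strand for nuo-5, nuo-6, gas-1, nduf-6, nduv-2, mev-1, ucr-2.2, ucr-2.3, cyc-1 and R04F11.2. Strand use in counting was not given in the sources used here. Counts of these 15 genes are uncertain to that degree. In the annotation 12 of the members lie on chromosome I, 5 on II, 11 on III, 4 on IV, 5 on V and 6 on X.

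With total-read scaling 9 of the 15 members that fell still passed, and F58F12.1, R04F11.2, asb-2, cox-6A, cox-6B and ucr-2.1 did not. When OP50 reads were thinned to the depth of PY79, all 15 still fell, and 5 of the 6 that rose still rose, the exception being nuo-6.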

How the data were processed

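Poly(A) RNA of whole N2 worms was sequenced from its 3' ends in 4 libraries, 1 per group. The deposited values are raw read counts, 24775 transcript lines per library, not normalized by the authors. The submitters' processing notes name Bowtie 0.12.7. Build, annotation, counting tool and strandedness were not given in the sources used here. No coordinates are printed for that reason. The table holds 2 lines that name no gene, with 0 reads.

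For each gene the line with most reads over the 4 libraries was taken, since a read may be counted in several lines of a gene (9 members have identical lines). Names and overlaps came from the Ensembl annotation of WBcel235, to which 16760 of 17096 genes and all 43 members were matched. A gene needed 10 reads or more in some library. Libraries were scaled by TMM factors of 0.922, 0.743, 1.12 and 1.31 for OP50 day 4, OP50 day 13, PY79 day 4 and PY79 day 13. Log2 ratios used a prior count of 1, and fold values and their exact 95% Clopper-Pearson intervals, on the split of reads, used none. A read is not an independent molecule, and the intervals therefore cover only the error of counting.

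edgeR 4.0.16 (glmQLFit and glmQLFTest, R 4.3.3) was fitted to all 9032 genes with diet and day as additive terms and 1 residual degree of freedom, with Benjamini-Hochberg adjustment over all genes. The common dispersion was 0.138. Differences between libraries and any interaction of diet with age both enter the spread that all genes share in this fit. The prior degrees of freedom were infinite, so a gene's own spread got no weight and its p-value rests on the shared spread. With total-read scaling the prior degrees of freedom were 4.83, so the calls under that scaling differ in this respect as well. All p-values measure only the spread between these libraries. Tested on simulated data, the fit missed most changes of moderate size. DESeq2 1.42.0, total-read and DESeq2 scaling, other filters, summed lines, a prior count of 5, a fold of 1.5, robust weights and thinned OP50 reads were alternatives, and the second transcript line was added after seeing the data.

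Full values were given to members that passed edgeR's test, that were called in both age or both diet comparisons or in opposite directions, that had the highest or lowest ratio of their complex, to paralog groups, and to clk-1, isp-1, mev-1, gas-1, nuo-6 and cox-5B. Of the other lists, genes called in both diet comparisons were eligible. The members and lists were chosen with earlier results of these data known.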

Additional observations from a re-analysis of the deposited data

How the results depend on the processing

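There is 1 library per group, and depth, not only diet, separates the OP50 libraries from the PY79 libraries. No paired analysis was possible because each group holds 1 library and the labels carry no replicate numbers. With total-read scaling 1 member was higher and 4 were lower with age on OP50. Under that scaling 12 were higher on PY79 at day 13, and 9 fell with diet. The median shift of the log2 ratios was then -0.30 and 0.23 (age on OP50 and PY79) and 0.27 and 0.79 (diet at day 4 and day 13). With DESeq2 size factors the median shift was 0.08, 0.07, -0.14 and -0.15, in the same order. At a fold of 1.5, 9 members were higher and 5 lower with age on OP50, and 10 were lower with age on PY79. DESeq2's Wald test gave 3 members that rose with diet, and edgeR with robust weights gave 1 that fell with age, cox-6A. With the second transcript line, an alternative added after seeing the data, 1 member was lower with age on PY79 and 6 were higher on PY79 at day 4. With that line the log2 ratio at day 4 was -2.17 for mev-1, -0.81 for cyc-1, -2.25 for isp-1 and -0.59 for atp-3, and -2.50 at day 13 for atp-3, all of opposite sign to the chosen line. The edgeR diet effect with that line was -1.52 for atp-3 (adjusted p 0.27) and -2.16 for asb-1 (adjusted p 0.021), also of opposite sign. The cause was not tested. The other counts of members stayed within 1.5 times, under no filter, under 10 reads in every library, with summed lines, with a prior count of 5 and with thinned OP50 reads. For single genes, 1916 values kept their direction and call or moved by less than their interval, 335 moved further, 17 lost and 13 gained a call, and 7 reversed as given. Other ratios that were not called with the chosen line also changed sign with the second line, such as those of asb-1 and that of R53.4 at day 13. They are counted among the values that moved. With the second line asb-1 was called lower on PY79 at day 4 and day 13. In edgeR's test asb-1, atp-1 and atp-5 then fell on PY79 in addition, and R04F11.2 and cox-6B no longer passed. All intervals of ucr-2.2, with 12 reads at most, spanned 1.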
